A study of Mus musculus with 9 samples.

Results

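Colon RNA of mice that were fed a high-fat diet and gavaged with the gut bacterium Papillibacter cinnamivorans was compared with colon RNA of control mice. The comparison covers 6 of the 9 libraries of the series: control replicates 1, 2 and 3, and replicates 1, 3 and 4 of the high-fat diet group given the bacterium, called HFD+Pc here. All mice were C57BL/6, were 6 weeks old when the 45 animals were divided into 3 groups of 15, and colon was collected at postnatal day 98. The third group, on the high-fat diet alone (HFD, replicates 1, 2 and 4), carries the same diet without the bacterium. It is quoted only beside single genes and the summed ribosomal protein share. Gavage, which is dosing through a tube into the stomach, is named in the labels for the HFD+Pc group alone. Against control, the diet, the bacterium and the gavage therefore cannot be told apart. Neither the region of the colon nor the assignment of libraries to individual animals is given in the labels, so p-values measure the spread between these libraries, which may be technical. Of 54491 genes in the table, the 16771 with at least 0.5 FPKM in at least 3 of the 6 libraries were tested. FPKM is the number of sequenced fragments of a gene, scaled to the length of its exons and to the size of the library.

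The colon is lined by a single layer of epithelial cells that absorb water and salts, secrete mucus and antimicrobial proteins, and are renewed from stem cells at the crypt base. Colonocytes burn short-chain fatty acids made by gut bacteria and depend on mitochondrial respiration, whose chain is built from subunits encoded in the nucleus and in the mitochondrial genome. Below the epithelium lie immune cells, among them plasma cells that secrete immunoglobulin A and resident T cells, and beneath them smooth muscle and enteric nerves. A fall or rise of a transcript in whole tissue can come from fewer or more cells of a type or from less or more RNA per cell, and these cannot be told apart here.

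The 6 libraries had between 14369547 and 16418918 fragments over genes whose FPKM values resolved into whole fragments. Control replicate 1 stood apart from the other 5. Its first principal component score, on an axis holding 35.1% of the variance, was 61.6 against -22.5 to 5.8. The second axis (28.7%) held the controls at 11.7 to 34.2 and HFD+Pc at -32.9 to -15.6. In control replicate 1 the smooth muscle list took 3.046% of summed FPKM, against 0.5749% and 0.7265% in the other controls and 0.7853% to 1.159% in HFD+Pc. Desmin (Des), a muscle filament protein, stood at 1176, 241.6 and 159.7 FPKM in control replicates 1, 2 and 3. Carbonic anhydrase 1 (Car1) of colonocytes stood at 602.8, 13020 and 19170 FPKM, the homeobox gene Hoxa13 at 26, 2.062 and 0.3853 FPKM, and the bile acid exporter subunit Slc51a at 3.494, 81.4 and 84.65 FPKM. The HFD+Pc libraries held 387.4, 211 and 193.7 FPKM of Des, 10200, 7726 and 9674 FPKM of Car1, 6.201, 10.13 and 2.276 FPKM of Hoxa13, and 80.97, 57.66 and 86.15 FPKM of Slc51a. These 4 genes were named after their values were seen. In Des and Slc51a HFD+Pc lay nearer to control replicates 2 and 3 than to control replicate 1. In Car1 and Hoxa13 HFD+Pc lay between control replicate 1 and the other controls. All 21 colon epithelium markers were detected, and summed to 15230, 34580 and 40980 FPKM across the control libraries and to 26930, 22940 and 23340 FPKM in HFD+Pc. Results are therefore given with all controls and, where it matters, without control replicate 1; a group of 2 libraries is then assumed to vary like the others.

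In HFD+Pc colon, 6 large-subunit and 3 small-subunit ribosomal protein genes and 5 nuclear respiratory chain genes fell, as did the epithelial transcription factor Klf4. The mitochondrial transfer RNA mt-Ts2, the lymphocyte gene Gimap4 and the serotonin synthesis gene Tph1 rose. In all, 74 genes (0.441% of those tested) were higher and 221 (1.32%) were lower, 295 (1.76%) together, by limma on log2(FPKM + 1) at a Benjamini-Hochberg adjusted p below 0.05. All log2 differences below are HFD+Pc minus control on this scale, which understates changes of low genes. The lowest adjusted p was 0.021, and the median difference over all tested genes was -0.014. At an unadjusted p below 0.05, 1443 genes (8.6%) were higher and 2076 (12.4%) lower, and counts at that p in the lists below are read against these shares. The groups did not overlap for 1688 genes (10.1%) that were higher and 2077 (12.4%) that were lower. Of the higher genes 42 were protein-coding, 8 pseudogenes, 4 immunoglobulin or T cell receptor segments, 14 other RNAs and 6 unnamed gene models, and of the lower genes 168 were protein-coding, 29 pseudogenes, 13 other RNAs and 11 unnamed.

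**Figure D1:**
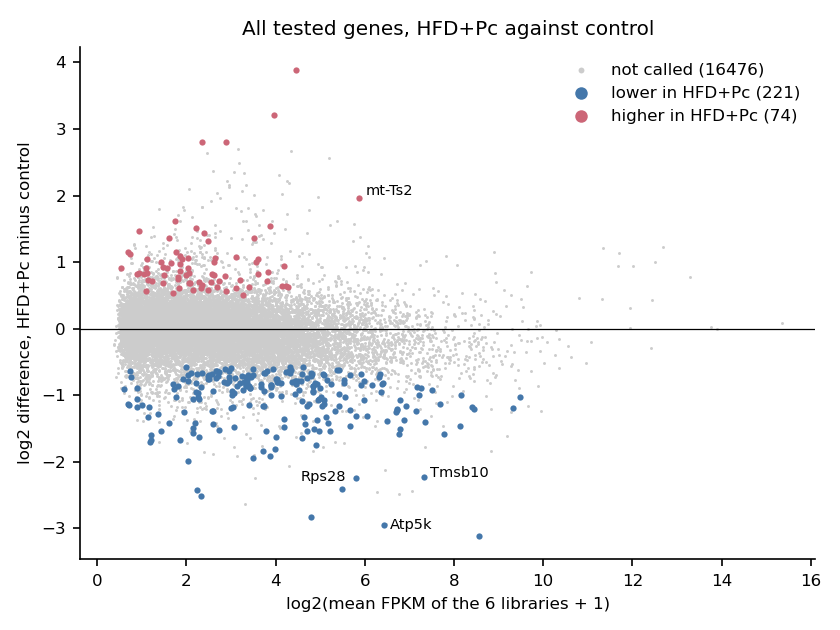
Log2 difference between HFD+Pc and control (vertical axis) against the log2 mean level of the 6 libraries (horizontal axis) for each of 16771 tested genes, one point per gene. The 221 lower genes (blue) lie at differences from -3.11 to -0.57 and the 74 higher genes (red) from 0.51 to 3.88.

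These counts were sensitive to single libraries and to the base composition of the genes. Without control replicate 1, 372 genes (2.28%) were higher and 939 (5.76%) lower, and each of the 283 called genes that were still tested stayed called with its sign. Counts without that library in the lists below are read against these shares. Without control replicate 2, control replicate 3, HFD+Pc replicate 1 or HFD+Pc replicate 4 the count was 0 each time by limma, although 2702, 3231, 2971 and 2505 genes had an unadjusted p below 0.05. With only the 6 libraries in the fit 0 genes were higher and 10 lower. The sign of each called gene held in all 27 other settings in which it was tested. Those settings rework the same libraries in which the genes were selected, so a held sign is not independent support.

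Genes with a low share of G and C were higher in HFD+Pc and genes with a high share were lower. GC content was taken from the longest transcript of each gene. The median log2 difference ran from 0.312 over the 440 genes with up to 38% GC to -0.241 over the 1454 genes above 58%. Genes called higher had a median GC content of 40.2%, genes called lower 55.8%, and genes not called 49.6%. The pattern was present library by library: for genes of up to 42% GC the median deviation from the 6-library mean was -0.197, -0.105 and -0.058 in control and 0.136, 0.105 and 0.12 in HFD+Pc, so that the groups did not overlap. Genes called lower were also shorter, with a median exonic length of 1960 bases against 3463 for higher and 3711 for uncalled genes. When the GC trend was subtracted from each library, a setting added after the data were seen, 0 genes were higher and 1 lower by limma, with 2552 genes at an unadjusted p below 0.05. With the GC trend subtracted and control replicate 1 left out, 174 (1.1%) were higher and 456 (2.89%) lower, including 155 of the 267 genes called above that were tested. List counts in that setting are read against these shares. Of the genes given below as called, these did not pass in that setting: C1qa, Cd48, Cd53, Chac2, Cry2, Gimap4, Ier5, Il22ra2, Junb, Mir186, Pink1, Pkm, Prss8, Ptprc, Rgs17, Slc2a1, Thap2 and Zfp983 (limma adjusted p = 0.0504 to 0.0811). Rpl35, Rpl36, Cox5b and Gm48158, also given below, were not part of this check.

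**Figure D2:**
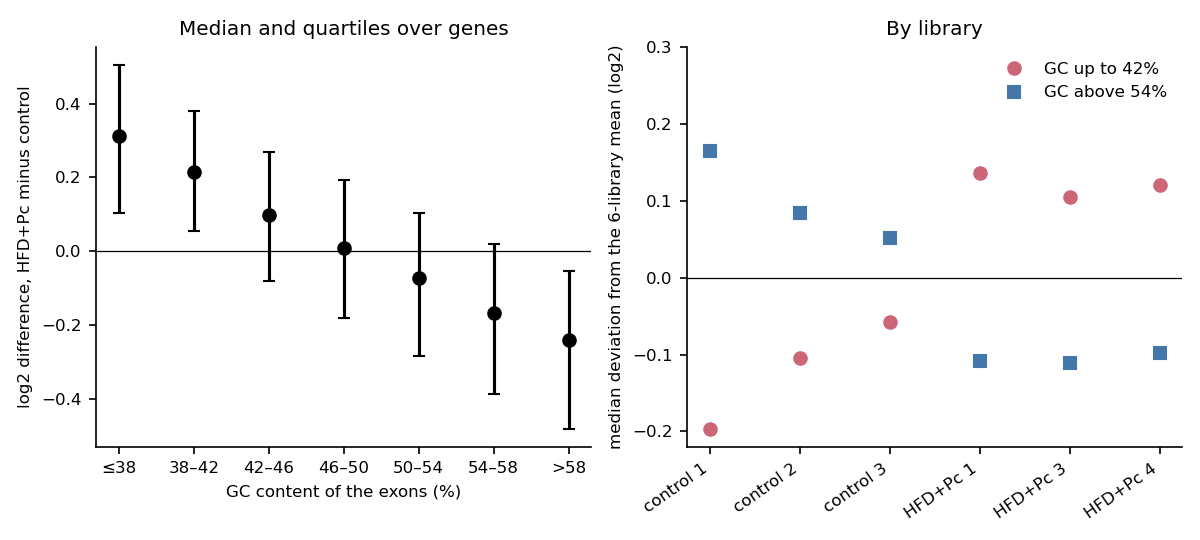
Left, median log2 difference with quartiles over genes in 7 bins of GC content, taken from the longest transcript of each gene (exons in the axis label). Right, for each library, the median deviation from the mean of the 6 libraries for genes of up to 42% GC (red circles) and above 54% GC (blue squares). The medians fall from 0.312 to -0.241 across the bins, and the 3 control and 3 HFD+Pc libraries lie on opposite sides of 0.

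Cytosolic ribosomal proteins build the subunits that translate messenger RNA. Of 48 tested genes of the large subunit 6 fell and 0 rose, and 42 of the 48 had a negative difference (median -0.41). Of 33 small subunit genes 3 fell and 0 rose, with 31 negative (median -0.40). Both medians stayed below 0 in each of 28 settings, at -0.476 to -0.14 and -0.443 to -0.066. The weakest medians came with quantile normalization. Leaving out control replicate 1 gave 8 and 5 lower genes. With that library left out and the GC trend subtracted, 6 and 3 were lower, whereas with the GC trend subtracted and all libraries kept 0 of either list were called by limma, with medians of -0.34 and -0.29. These genes have a GC content near that of all genes, with medians of 52% and 50.9% against 49.7%. Many have near-identical processed pseudogenes, so that their values are uncertain. Of 98 tested pseudogenes named after ribosomal protein genes, a group formed after the values were seen, 7 were also lower and 0 higher.

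Rps28, a small subunit protein, measured 101.4, 76.87 and 91.65 FPKM across the control libraries and 16.73, 32.43 and 10.72 FPKM in HFD+Pc. Every HFD+Pc value was below every control value (log2 difference -2.24, SE 0.39, limma adjusted p = 0.036). Rpl28, of the large subunit, measured 332.1, 338 and 316.2 against 89.32, 122 and 119.8 FPKM, with controls close together and HFD+Pc well below them (-1.58, SE 0.23, limma adjusted p = 0.035). Rpl38 measured 490, 373.7 and 369.9 against 169.9, 140.5 and 134.4 FPKM. The HFD libraries held intermediate Rpl28 values of 229.3, 227.8 and 133.1 FPKM. Rps15 (1052, 824.6 and 814.1 against 386.7, 416.2 and 363.2 FPKM) and Rps29 (460.7, 463.6 and 476.3 against 238.9, 228.3 and 159.1 FPKM) also fell, as did Rpl21, Rpl23, Rpl35 and Rpl36. Summed over all ribosomal protein genes, their share of total FPKM was 6.55%, 5.321% and 6.012% in control and 3.91%, 5.151% and 4.837% in HFD+Pc. The groups did not overlap (exact two-sided permutation p = 0.1, which is the smallest p that 3 against 3 libraries allow, and 0.375 adjusted over 5 shares). In HFD the same share was 6.617%, 7.798% and 6.705%, above every control value, unlike the intermediate Rpl28.

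Ribosomal protein messages commonly start in a run of pyrimidines, through which their translation is regulated together. The sequences around the annotated starts are shown for all 6 called genes found in the RefSeq promoter table (GRCm38.p6), because these genes moved in the same direction. Each line runs from 30 bases before to 20 bases from the start, 5′ to 3′ on the gene's own strand, with capitals for CTTTC or CTTCC, searched on that strand within 10 bases either side of the start.
Rpl28 (chr7:4792935-4792984, plus strand): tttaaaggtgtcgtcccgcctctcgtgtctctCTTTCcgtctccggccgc
Rpl35 (chr2:39005112-39005161, minus strand): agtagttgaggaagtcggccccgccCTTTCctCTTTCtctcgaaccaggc
Rpl38 (chr11:114668550-114668599, plus strand): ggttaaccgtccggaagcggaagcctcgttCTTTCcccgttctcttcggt
Rpl23 (chr11:97782420-97782469, minus strand): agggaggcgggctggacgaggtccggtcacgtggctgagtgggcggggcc
Rps15 (chr10:80292401-80292450, plus strand): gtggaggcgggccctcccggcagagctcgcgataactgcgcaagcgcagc
Rps28 (chr17:33824543-33824592, minus strand): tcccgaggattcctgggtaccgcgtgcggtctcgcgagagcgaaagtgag

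Either motif lay within that window for 3 of the 6 called ribosomal protein genes in the table, for 13 of the 52 (25%) that were tested and not called, and for 2092 of 27025 genes (7.7%) overall. The windows of Rpl23, Rps15 and Rps28 hold neither motif that near to the start. A match describes the letters at one annotated start and was not related to the measured difference by a test.

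Of 81 tested nuclear-encoded subunits of the respiratory chain 5 fell and 0 rose, 62 had a negative difference, and the median was -0.30, ranging from -0.505 to -0.054 over the 28 settings. Without control replicate 1 the count was 30 lower of 80 and 0 higher. It was 23 lower with the GC trend subtracted as well. With the GC trend subtracted and all libraries kept, 0 were called by limma and the median was -0.29. Atp5k, a small subunit of the membrane part of ATP synthase, measured 135.6, 145.5 and 169 FPKM across the control libraries and 20.33, 26.01 and 11.73 FPKM in HFD+Pc. That is a log2 difference of -2.95 (SE 0.43, limma adjusted p = 0.035), the largest among named genes that fell, with no overlap. The HFD libraries held 56.35, 77.74 and 22.53 FPKM. Near-identical copies of Atp5k elsewhere in the genome make its level uncertain. Uqcr11, a subunit of complex III, measured 115.6, 166 and 160.7 against 68.09, 69.56 and 51.31 FPKM (-1.21, SE 0.19, limma adjusted p = 0.035). The complex I subunits Ndufa3 (62.66, 95.08 and 97.41 against 39.55, 38.34 and 40.14 FPKM) and Ndufv3 (30.46, 41.35 and 38.8 against 20.48, 17.46 and 17.47 FPKM) and the cytochrome c oxidase subunit Cox5b fell too. Pink1, a kinase that marks damaged mitochondria, and Esrra, a nuclear receptor that activates respiratory genes, both named after their values were seen, measured 79.36, 78.93 and 70.88 against 50.86, 36.64 and 40.21 FPKM and 33.07, 35.91 and 40.77 against 21.04, 22.32 and 17.58 FPKM. Both fell (-0.84 and -0.82, limma adjusted p = 0.035 for each).

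Among transcripts of the mitochondrial genome 0 fell. Of 13 mitochondrial messenger RNAs 0 were called by limma, 4 had an unadjusted p below 0.05, all higher, and the median difference was 0.43. Of 18 mitochondrial transfer and ribosomal RNAs 1 rose and 0 fell. Mitochondrial genes together took 25.18%, 23.25% and 16.56% of summed FPKM across the control libraries and 34.8%, 21.56% and 28.26% in HFD+Pc, so that the groups overlapped (exact permutation p = 0.3). Their median GC content was 37.1% for the messenger RNAs and 34.6% for the other class. With the GC trend subtracted the medians became 0.212 and -0.027.

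The RNA that rose was mt-Ts2, the transfer RNA that brings serine to AGY codons. Its 59 bases, 32.2% of them G or C, are printed from the GENCODE M21 transcripts (GRCm38) with the anticodon in capitals, since this short gene had the largest rise among named genes.
mt-Ts2: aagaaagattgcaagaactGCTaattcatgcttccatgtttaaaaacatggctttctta
It measured 26.91, 23.48 and 17.91 FPKM in control against 92.16, 72.21 and 110.9 FPKM in HFD+Pc (log2 difference 1.96, SE 0.21, limma adjusted p = 0.021). The HFD libraries held 10.85, 14.17 and 14.52 FPKM. All 3 HFD+Pc libraries were above all 6 others. The counts behind these values were small, at 27, 21 and 16 fragments in control and 76, 71 and 115 in HFD+Pc. Intervals on them would cover counting error only. Without control replicate 1 the difference was 2.09 (limma adjusted p = 0.01), and with the GC trend also subtracted the adjusted p was 0.0094. With the GC trend subtracted and all libraries kept it was not called by limma, nor with only the 6 libraries in the fit. It was called in 17 of the 26 settings that tested it. A neighbour on the mitochondrial genome, the transfer RNA mt-Th, measured 13.17, 13.78 and 6.902 against 24.56, 17.02 and 39.06 FPKM and was not called (1.16, SE 0.37, limma adjusted p = 0.13).

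Klf4, a transcription factor of differentiated colonocytes and goblet cells, measured 168.7, 200.2 and 222.9 FPKM across the control libraries and 90.18, 101 and 62.29 FPKM in HFD+Pc. No value overlapped (log2 difference -1.23, SE 0.20, limma adjusted p = 0.035), and HFD stood between at 143, 119.3 and 119.4 FPKM. Of 26 epithelial transcription factors Klf4 was the 1 that fell and 0 rose. Cdx2, the intestinal homeobox factor, measured 73.17, 121.1 and 140.7 against 71.96, 80.28 and 54.31 FPKM and was not called (-0.66, limma adjusted p = 0.19). The membrane serine proteases St14 (62.37, 58.24 and 63.3 against 33.54, 33.77 and 23.07 FPKM) and Prss8 (22.61, 23.76 and 22.83 against 13.68, 17.01 and 14.69 FPKM), which act together in epithelial barrier formation, both fell, by 1.02 and 0.58 on the log2 scale (limma adjusted p = 0.038 and 0.049). Pard6b, a cell polarity protein, measured 15.9, 17.22 and 16.42 against 8.967, 7.803 and 7.767 FPKM. Eps8l3, a relative of the actin regulator Eps8, measured 64.51, 75.91 and 70.19 against 34.09, 30.12 and 24.93 FPKM. These 4 genes were named after their values were seen.

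Of 26 tight junction and adhesion genes 0 were called by limma, 10 had an unadjusted p below 0.05 as lower and 1 as higher, beside 12.4% and 8.6% of all tested genes, and the median was -0.31. Cldn4, a sealing claudin, measured 67.2, 100.4 and 52.38 against 45.7, 27.92 and 33.12 FPKM (limma adjusted p = 0.088). Cldn3 measured 503.2, 700.3 and 622.8 against 425, 290.4 and 415.4 FPKM (-0.70, limma adjusted p = 0.11; 0.045 without control replicate 1). The scaffold Tjp1 (13.93, 17.48 and 17.89 against 17.15, 16.8 and 13.84 FPKM) and occludin, Ocln (19.33, 35.41 and 32.97 against 31.15, 25.63 and 24.61 FPKM), overlapped between groups, with differences of -0.04 and -0.07. Without control replicate 1, 5 junction genes were lower, and with the GC trend also subtracted 0 were, by limma.

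Among 26 immediate early genes, which respond within minutes to growth factors and stress, 3 fell, 0 rose and 20 were negative (median -0.34). Besides Klf4 they were Junb, a subunit of the AP-1 factor, at 41.4, 44.84 and 67.98 against 19.34, 16.77 and 18.62 FPKM (-1.41, SE 0.29, limma adjusted p = 0.049), and Ier5, named after its values were seen, at 42.72, 43.92 and 39.34 against 25.36, 15.06 and 21.28 FPKM. Jund, the gene of highest GC content among them at 67.1%, measured 149.4, 107.2 and 106.4 against 68.71, 59.18 and 50.31 FPKM and just missed the threshold (limma adjusted p = 0.053). The immediate early list had a median GC content of 54.2%. With the GC trend subtracted 0 of its genes were called by limma (median -0.193). With control replicate 1 also left out 1 was lower and 0 higher (median -0.099). Tmsb10, an actin-sequestering thymosin, fell from 258.6, 229.6 and 294.5 to 45.98, 71.01 and 50.66 FPKM (-2.22, SE 0.33, limma adjusted p = 0.035), with HFD at 85.42, 91.84 and 36.43 FPKM. It was the 1 called gene of 26 in the actin and thymosin list, and its values are uncertain because of near-identical copies.

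**Figure D3:**
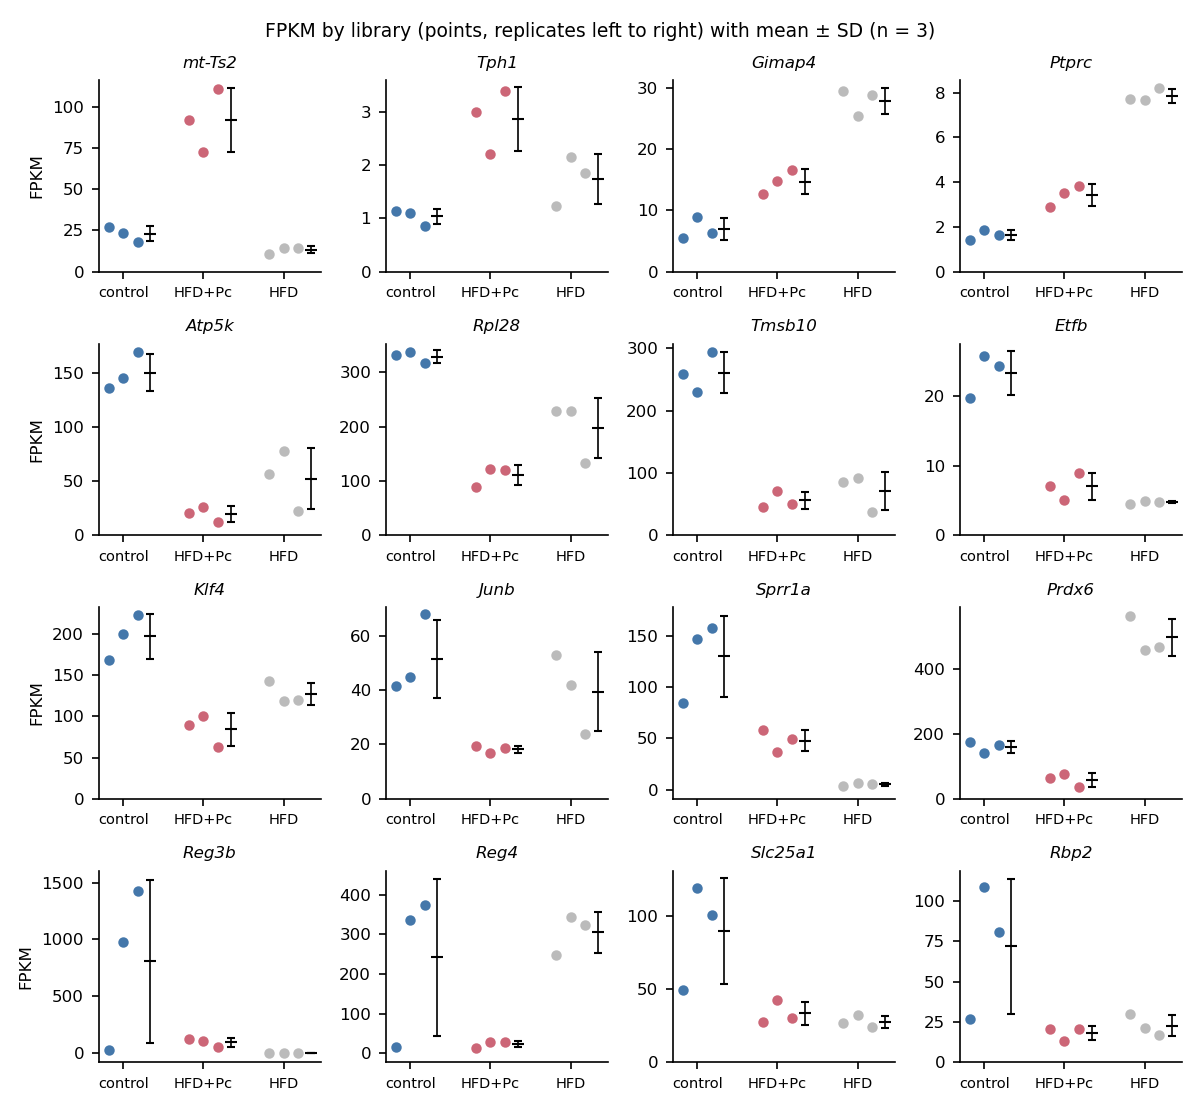
FPKM of 16 genes in each library, with control in blue, HFD+Pc in red and HFD in grey, points in replicate order and mean ± SD (n = 3) in black beside them. The first 12 genes were called and their control and HFD+Pc points do not overlap; in Reg3b, Reg4, Slc25a1 and Rbp2, which were not called, control replicate 1 lies below the other controls.

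Etfb, which passes electrons from fatty acid oxidation to the respiratory chain, measured 19.7, 25.73 and 24.35 FPKM across the control libraries and 7.13, 5.001 and 8.896 FPKM in HFD+Pc (log2 difference -1.62, SE 0.18, limma adjusted p = 0.021). Its HFD values were 4.535, 4.885 and 4.759 FPKM. It was the only called gene of 41 in fatty acid oxidation and ketogenesis, of which 21 were positive and 20 negative (median 0.02). This balance depended on control replicate 1. Without that library 6 of the 41 were lower and 0 higher by limma, with a median of -0.409. With the GC trend also subtracted 4 were lower and 0 higher, with a median of -0.341. Mlycd, which degrades malonyl-CoA and was named after its values were seen, fell from 15.14, 16.4 and 16.85 to 10.17, 10.21 and 9.604 FPKM (-0.64, SE 0.10, limma adjusted p = 0.035).

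Of 28 genes of fatty acid and triglyceride synthesis 0 were called by limma, but 25 were negative and 8 had an unadjusted p below 0.05 as lower (median -0.34). Slc25a1, the mitochondrial citrate carrier that feeds fatty acid synthesis, measured 49.57, 119.1 and 100.4 against 27.87, 42.48 and 30.47 FPKM (-1.32, SE 0.31, limma adjusted p = 0.068). Dgat1, which makes triglyceride, measured 22.19, 39.42 and 26.59 against 19.57, 15.22 and 14.93 FPKM (-0.76, limma adjusted p = 0.088). Neither gene overlapped between groups. Control replicate 2 held far more of some lipid genes than any other library, with Scd1, a desaturase, at 33.16, 881.3 and 160.9 in control against 23.52, 105.1 and 87.95 FPKM, and Fasn at 10.88, 108.9 and 28.8 against 12.23, 24.06 and 18.5 FPKM. The groups overlapped for both (limma adjusted p = 0.49 and 0.51). Adipocyte markers were high in the same library: the list of 20 summed to 180, 2007 and 493.2 FPKM in control and to 238.2, 625.3 and 704.8 FPKM in HFD+Pc, with 0 of its 19 tested genes called by limma, 1 at an unadjusted p below 0.05 and 0 of the 20 listed at 0 in all 6 libraries. The part of these markers in the values of the lipid lists was not tested. In the list of fatty acid and triglyceride synthesis, leaving out control replicate 1 gave 8 lower genes and 0 higher. With the GC trend also subtracted 4 were lower and 0 higher. Control replicate 2 is then 1 of 2 controls.

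Of 26 cholesterol synthesis genes 0 were called by limma, with 24 negative and 5 at an unadjusted p below 0.05 (median -0.24). Pmvk and Mvd, enzymes of the mevalonate pathway, measured 8.857, 10.09 and 9.641 against 4.135, 5.114 and 3.023 FPKM and 15.37, 16.57 and 21.89 against 9.622, 10.01 and 7.407 FPKM (limma adjusted p = 0.061 and 0.069). With control replicate 1 left out, 6 of the 26 were lower. Of 23 lipid uptake and lipoprotein genes 0 were called by limma, 19 were negative and 3 had an unadjusted p below 0.05 as lower, a share near the 12.4% of all tested genes. Fabp2, the intestinal fatty acid-binding protein, measured 742.7, 2458 and 1905 against 1723, 1007 and 1177 FPKM, and Cd36, a fatty acid transporter, 8.715, 88.32 and 14.65 against 12.99, 39.53 and 46.83 FPKM. Both overlapped. The vitamin A-binding protein Rbp2 measured 26.53, 108.4 and 80.41 against 20.75, 13.47 and 20.88 FPKM (-1.72, SE 0.46, limma adjusted p = 0.088, and 0.013 without control replicate 1).

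In glycolysis 2 of 23 genes fell and 0 rose, with 19 negative (median -0.35). They were Pkm, pyruvate kinase, at 168.8, 174.4 and 212.3 against 103.6, 106.8 and 90.25 FPKM, and the glucose transporter Slc2a1 at 67.2, 81.02 and 72.01 against 51.83, 40.1 and 44.82 FPKM (limma adjusted p = 0.049 for both). Slc16a3, a transporter of lactate and other monocarboxylates, was the 1 called gene of 11 in short-chain fatty acid transport and sensing, and fell from 3.406, 2.766 and 3.64 to 1.063, 1.591 and 1.188 FPKM (-0.91, SE 0.14, limma adjusted p = 0.035). The butyrate transporter Slc5a8 (12.97, 19.86 and 22.65 against 25.67, 28.96 and 14.99 FPKM) and the receptor Ffar2 (9.949, 4.871 and 4.972 against 5.18, 9.592 and 4.996 FPKM) overlapped. The circadian repressor Cry2 fell from 7.053, 6.169 and 5.717 to 3.906, 3.542 and 3.277 FPKM (-0.68, SE 0.12, limma adjusted p = 0.041), 1 of 17 clock genes.

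Several antimicrobial genes depended on control replicate 1. Of 21 tested genes 1 fell and 0 rose (median -0.52). This was Sprr1a, a small proline-rich protein, at 84.35, 146.8 and 157.8 FPKM across the control libraries and 57.79, 36.85 and 48.85 FPKM in HFD+Pc (-1.39, SE 0.28, limma adjusted p = 0.049), while HFD held 3.837, 6.571 and 5.243 FPKM. The lectins Reg3b and Reg3g, which act on gut bacteria, measured 24.72, 976.8 and 1428 against 128.3, 109.2 and 53.76 FPKM and 8.568, 203.9 and 206.6 against 13.94, 19.95 and 6.917 FPKM. Reg4 measured 14.92, 336.4 and 373.5 against 13.52, 29.45 and 27.47 FPKM. In these 3 genes control replicate 1 lay at the HFD+Pc level or below it, and the other controls lay far above. They were not called with all controls (limma adjusted p = 0.48, 0.22 and 0.22) and were lower without control replicate 1 (-3.68, -3.93 and -3.93, limma adjusted p = 0.018, 0.0069 and 0.006). Lcn2, an iron-scavenging protein of inflamed epithelium, stood at 0.4364, 26.61 and 1.236 FPKM in HFD+Pc against 0.7399, 1.383 and 0.7303 FPKM in control, with 1 high HFD+Pc library, and was not called (limma adjusted p = 0.5).

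Single genes known from leukocytes rose, at low levels, while the cell type lists that follow held 0 genes called higher by limma. Ptprc, which encodes the pan-leukocyte surface phosphatase CD45, measured 1.407, 1.877 and 1.623 FPKM across the control libraries and 2.887, 3.519 and 3.843 FPKM in HFD+Pc (log2 difference 0.74, SE 0.12, limma adjusted p = 0.035). Cd53, a leukocyte tetraspanin, rose from 6.178, 9.846 and 7.736 to 13.51, 13.81 and 16.4 FPKM, and Cd48, an adhesion molecule, from 3.66, 3.939 and 4.445 to 6.619, 6.561 and 8.518 FPKM. Cxcr6, a chemokine receptor of tissue T cells, rose from 1.188, 0.8883 and 1.095 to 2.631, 3.17 and 2.063 FPKM (limma adjusted p = 0.049). Il22ra2, a soluble receptor that binds interleukin 22, rose from 2.307, 2.482 and 1.904 to 4.382, 4.132 and 4.1 FPKM (limma adjusted p = 0.042). Gimap4, a GTPase of lymphocytes, rose from 5.538, 8.978 and 6.257 to 12.62, 14.86 and 16.69 FPKM (log2 difference 1.004, SE 0.175, limma adjusted p = 0.038), 1 of 8 Gimap genes, of which 7 were positive. The HFD libraries held 7.663 to 8.23 FPKM of Ptprc, 36.61 to 40.55 FPKM of Cd53 and 25.46 to 29.52 FPKM of Gimap4, all above the HFD+Pc values, whereas for Cxcr6 they held 2.568, 2.887 and 3.845 FPKM, which overlap HFD+Pc. Ptprc, Cd48 and Il22ra2 were named after their values were seen. Their GC contents were 39.4%, 42% and 38.9%, and with the GC trend subtracted and control replicate 1 left out none of these 3 passed (limma adjusted p = 0.066, 0.072 and 0.067), nor did Cd53 (0.078) and Gimap4 (0.051), while Cxcr6 passed (0.048).

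Of 28 T and NK cell genes 0 were called by limma, 24 were positive and 10 had an unadjusted p below 0.05 as higher, beside 8.6% of all tested genes (median 0.28). Their summed level was 82.15, 144.5 and 105.2 FPKM across the control libraries and 130.2, 140.4 and 136.4 FPKM in HFD+Pc, which overlap. Of 20 B and plasma cell genes 0 were called by limma and 17 were positive (median 0.39), with 2 at an unadjusted p below 0.05. Immunoglobulin genes took 0.4693%, 1.33% and 0.7687% of summed FPKM across the control libraries and 0.676%, 2.68% and 2.365% in HFD+Pc (exact permutation p = 0.3). HFD+Pc replicate 1 lay within the control range and the other HFD+Pc libraries lay above it. Of 144 immunoglobulin variable, diversity and joining segments, a group formed after the values were seen, 4 rose and 0 fell. Of 25 macrophage and dendritic cell genes 1 fell and 0 rose, while 15 were positive (median 0.14). C1qa, a complement subunit made by macrophages, fell from 44.33, 52.71 and 39.06 to 15.55, 22.91 and 22.27 FPKM (-1.14, SE 0.22, limma adjusted p = 0.047). The complement subunit gene C1qb did not fall with it. It measured 35.78, 40.93 and 27.26 against 25.84, 40.26 and 54.23 FPKM (0.16, limma adjusted p = 0.77).

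Inflammatory genes showed no common direction. Of 21 cytokine and NF-kB genes 0 were called by limma, 3 had an unadjusted p below 0.05 as higher and 3 as lower, and the median was -0.04. Tnf measured 2.942, 2.174 and 1.088 against 1.528, 1.281 and 0.5207 FPKM, and Il1b 1.234, 1.661 and 1.282 against 1.688, 2.077 and 0.8354 FPKM. Il18, a cytokine of epithelium, measured 17.45, 14.65 and 19.67 in control, 13.12, 11.87 and 10.38 in HFD+Pc and 83.84, 67.92 and 90.18 FPKM in HFD (HFD+Pc against control -0.51, limma adjusted p = 0.12). H2-Q10, a class I histocompatibility gene whose near relatives share sequence with it, fell from 5.897, 10.89 and 9.754 to 1.497, 3.892 and 2.094 FPKM (-1.51, SE 0.28, limma adjusted p = 0.041).

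Tph1, the enzyme that starts serotonin synthesis in enterochromaffin cells, rose from 1.134, 1.112 and 0.8669 to 3.002, 2.207 and 3.402 FPKM, beside HFD values of 1.235, 2.159 and 1.851 FPKM (log2 difference 0.92, SE 0.17, limma adjusted p = 0.044). All HFD+Pc values were above all control values, on 81 to 119 fragments in control and 227 to 369 in HFD+Pc. It was the 1 called gene of 23 enteroendocrine genes, of which 15 were positive and 0 fell. Gcg, the precursor of glucagon-like peptides, measured 42.79, 13.34 and 12.42 against 25, 43.54 and 29.33 FPKM, and Pyy 113.3, 47.99 and 41.88 against 57.6, 55.92 and 44.09 FPKM. Control replicate 1 was the highest control in both, and without it Gcg was called higher (1.24, limma adjusted p = 0.042). When control replicate 1 was left out, 4 enteroendocrine genes were higher, among them Tph1, Pcsk1, which cuts hormone precursors, and the transcription factor Neurod1. With the GC trend also subtracted only 1 was higher, namely Tph1 (limma adjusted p = 0.0475), and Gcg did not pass (0.056).

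Of 330 tested genes named Zfp, Zkscan or Zscan, grouped after the values were seen, 9 rose and 3 fell, beside 0.441% and 1.32% of all tested genes. Of the 330, 218 were positive (median 0.13, median GC 44.5%). The median over all tested genes of 42% to 46% GC was close to this, at 0.099. Zfp950 measured 4.726, 4.562 and 3.952 against 10.56, 7.694 and 13.94 FPKM (1.08, SE 0.19, limma adjusted p = 0.037). Zkscan3, a repressor of autophagy genes, rose from 8.821, 9.34 and 8.988 to 17.03, 14.75 and 19.74 FPKM, and Zfp983 and Zfp938 rose from control means of 1.55 and 3.43 to 3.63 and 6.75 FPKM. Tra2a, a splicing regulator, rose from 12.65, 9.432 and 12.37 to 23.77, 19.12 and 25.64 FPKM (0.93, SE 0.15, limma adjusted p = 0.035). Chac2, an enzyme of glutathione breakdown, rose from 4.74, 7.375 and 9.193 to 15.78, 15.29 and 14.75 FPKM. Rgs17, which restrains G protein signalling, rose from 1.269, 0.8189 and 1.17 to 1.992, 3.594 and 4.08 FPKM, while HFD held 0.3342 to 0.3717 FPKM. Thap2 and Arhgef38 also rose (0.91 and 0.81). Mir186, the gene of a microRNA precursor, stood at 4.141, 6.504 and 8.374 against 20.15, 12.68 and 29.65 FPKM (1.54, SE 0.31, limma adjusted p = 0.049). That call rested on 5 to 9 fragments in control and 15 to 37 in HFD+Pc, and the gene lies within an intron of a host gene, so that their reads cannot be told apart here. The mature microRNA was not measured. Ano7, with a GC content of 54.2%, rose from 9.211, 10.66 and 8.871 to 15.7, 15.71 and 17.78 FPKM (0.72, SE 0.12, limma adjusted p = 0.037). With the GC trend subtracted it was not called when all libraries were kept (limma adjusted p = 0.062). It passed when control replicate 1 was also left out (0.026). It was named after its values were seen.

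The remaining named genes that fell have varied roles. Prdx6, an antioxidant peroxiredoxin, fell from 176.1, 140 and 166.6 to 64.4, 77.28 and 34.98 FPKM, while HFD held 565.5, 460.6 and 470.6 FPKM (HFD+Pc against control -1.50, SE 0.27, limma adjusted p = 0.041). Edf1, a transcriptional coactivator, fell from 121.1, 189.2 and 176.5 to 55.79, 52.63 and 49.94 FPKM, and the prolyl isomerase Pin4 from 35.86, 41.85 and 35.31 to 13.74, 13.37 and 10.14 FPKM (limma adjusted p = 0.035 for both). Mien1 fell from 26.77, 20.49 and 29.71 to 7.854, 8.997 and 8.683 FPKM (-1.47, SE 0.16, limma adjusted p = 0.021), and Ly6g6c from 4.947, 5.357 and 6.185 to 2.408, 1.01 and 0.7908 FPKM. The small nucleolar RNA Snora31, which guides modification of ribosomal RNA, fell from 25.33, 13.19 and 20.33 to 7.155, 4.616 and 6.128 FPKM on 10 to 56 fragments per library, and it too lies within a host gene. The protease Prss32, named after its values were seen, fell from 318.8, 401.7 and 420.1 to 201.3, 198.9 and 168.6 FPKM (-0.99, SE 0.19, limma adjusted p = 0.047).

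**Figure D4:**
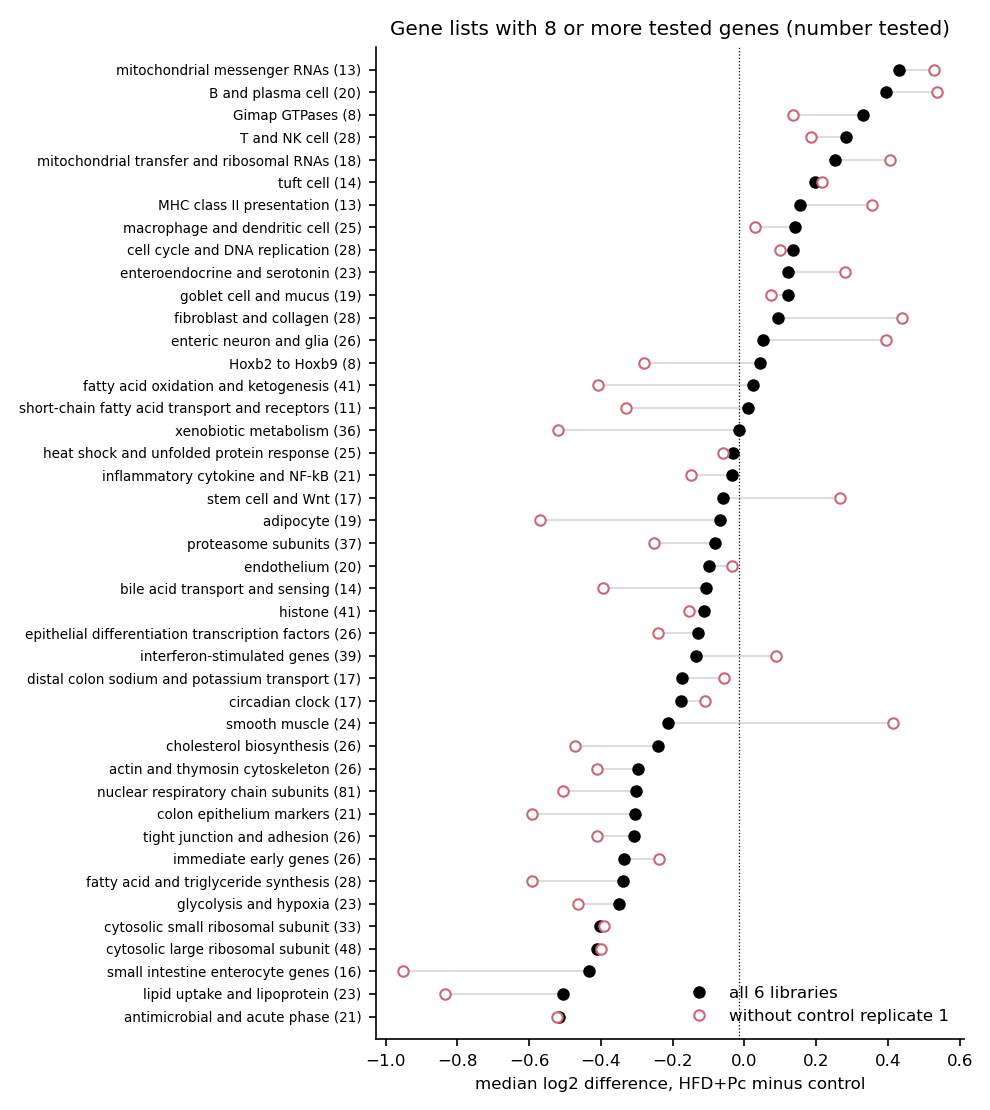
Median log2 difference of each gene list with 8 or more tested genes, with all 6 libraries (black) and without control replicate 1 (open red); the dotted line is the median of all tested genes. The ribosomal lists lie near -0.4 in both, whereas the smooth muscle list goes from -0.213 to 0.415 and the small intestine enterocyte list from -0.432 to -0.952.

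Other lists had 0 genes called by limma with all controls, and the medians of several moved with control replicate 1. The 24 smooth muscle genes had a median of -0.21 with all controls and 0.415 without that library, and 0 of them had an unadjusted p below 0.05 in the first case. Fibroblast and collagen genes went from 0.09 to 0.44, with 6 of 28 higher without that library, and xenobiotic metabolism genes from -0.01 to -0.52, with 8 of 36 lower and 1 higher. Without that library 2.28% of all tested genes were higher and 5.76% lower. Goblet cell genes had a median of 0.12, with Muc2, the main mucin of the colon, at 404.5, 262.7 and 364.4 against 313.7, 770.1 and 380.5 FPKM, and Tff3, a trefoil peptide, at 164.9, 1172 and 1121 against 686, 533.4 and 761.4 FPKM. Both overlapped between groups. The bile acid receptor Nr1h4 (27.07, 66.06 and 81.26 against 66.51, 50.84 and 65.89 FPKM) overlapped as well. Stem cell genes had a median of -0.06, cell cycle genes 0.13, tuft cell genes 0.20 and interferon-stimulated genes -0.13. By limma 0 genes of these 4 lists were called, with 2, 1, 3 and 4 genes at an unadjusted p below 0.05.

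**Figure D5:**
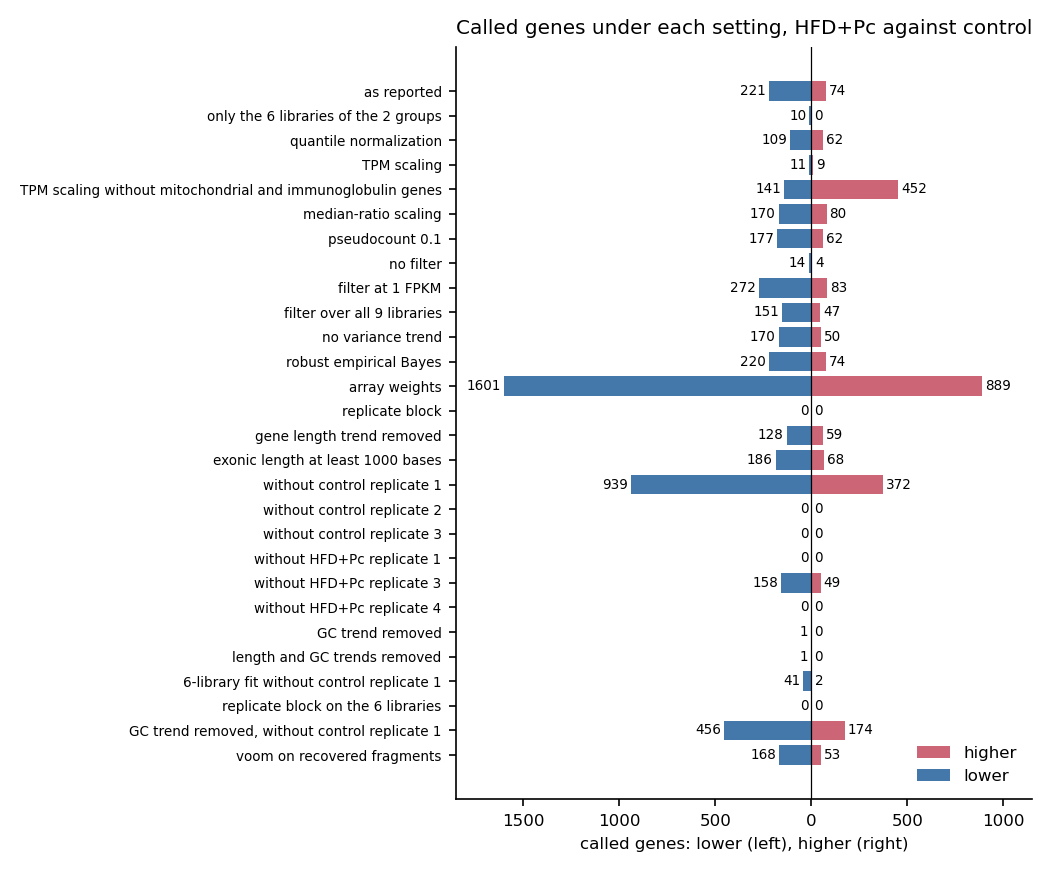
Number of genes called lower (blue, to the left) and higher (red, to the right) in HFD+Pc under each of 28 settings, the top bar being the one reported. Counts run from 0 and 0 with a replicate block or without 1 of 4 single libraries to 889 higher and 1601 lower with array weights.

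The balance of higher and lower calls moved with the scaling. As reported, 25.1% of called genes were higher. The share was 36.3% with quantile normalization, 45% of 20 calls after TPM scaling, which gives each library the same summed level, and 76.2% of 593 calls when mitochondrial and immunoglobulin genes were left out of that scaling, which moved the median of all genes from -0.014 to 0.181. The test on fragments recovered from the FPKM values (limma-voom) called 53 genes higher and 168 lower.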

How the data were processed

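RNA sequencing of mouse colon was available for 9 libraries, of which 6 are compared here. The deposited table holds FPKM values that the authors made per gene; alignment with HISAT2 2.0.5 to GRCm39 is per the submitters' processing notes, while the counting tool was not given in the sources used here. Symbols, exonic lengths and GC content came from GENCODE M21 (GRCm38) for 52147 of 54491 identifiers and serve only as gene properties. The GC content is that of the longest transcript of each gene. Genes at 0.5 FPKM or more in at least 3 of the 6 libraries were tested on log2(FPKM + 1), pseudocount 1, with limma 3.58.1 (R 4.3.3) with a variance trend, in a fit of all 9 libraries (6 residual degrees of freedom) and Benjamini-Hochberg adjustment over 16771 genes at 0.05.

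About 98% of values resolved into whole fragments within 0.02 fragments, which gave the depths and a limma-voom alternative. GC and length trends were removed per library by lowess (span 0.3). Shares were compared by exact two-sided permutation. On simulated data for this comparison (16201 genes, 200 changed), 97% of changes of 1 log2 unit and 100% of 2 were recovered, with 8 false among 205 calls. The simulation drew independent noise for each library, with no outlying library and no GC trend, and changed only well-expressed genes. It checks the fit, and its shares may not hold for the real libraries.

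The members, the 51 gene lists and the tests were chosen with earlier results of these data known. Genes named are the 15 largest called changes per direction without overlap between groups and with a mean of at least 1 FPKM, with pseudogenes, antigen receptor segments and gene models lacking a name set aside, the 4 of smallest p and 2 of highest level per list, and 27 fixed genes; genes added after their values were seen are marked as such. Some genes that this rule names are not reported here. Processing was varied in 21 planned ways and 6 added after seeing the data.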

Additional observations from a re-analysis of the deposited data

How the results depend on the processing

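As reported, 74 genes were higher and 221 lower. The counts were 0 higher and 10 lower with only the 6 libraries, 9 and 11 with TPM scaling, 452 and 141 with TPM scaling without mitochondrial and immunoglobulin genes, 4 and 14 without a filter, and 889 and 1601 with array weights. The filter over all 9 libraries gave 47 higher, quantile normalization 109 lower and removal of the length trend 128 lower. Leaving out 1 library at a time gave 0 to 372 higher and 0 to 939 lower genes; a group of 2 is assumed to vary like the others. Of the settings added after seeing the data, GC trend removal gave 0 and 1, removal of length and GC trends 0 and 1, the 6-library fit without control replicate 1 gave 2 and 41, and GC trend removal without control replicate 1 gave 174 and 456. The single gene left after GC trend removal was Gm48158, named for that reason after its value was seen. Genes left out by a setting's own filter were not compared, and the causes of these changes were not tested.

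With a replicate block 0 genes were higher and 0 lower by limma, with 2344 at an unadjusted p below 0.05, and with the block on the 6 libraries 0 and 0, with 1023. Same-numbered libraries had correlations of deviations from -0.165 to 0.198 over all groups. Between control and HFD+Pc they were 0.198 for replicate 1 and 0.151 for replicate 3, against -0.181 to 0.161 for differently numbered libraries. The labels do not say that the numbers pair the samples, and the reported fit does not pair them. Whether they are paired is not settled by these values. Depth limits genes with few fragments, such as mt-Ts2 and Mir186.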
